A study of Mus musculus with 74 samples.

Results

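The CXCR3 and CXCR6 chemokine axes are represented here by 5 genes, chosen by name from the 49480 gene symbols of the deposited count table: the ligands Cxcl9, Cxcl10 and Cxcl16 and the receptors Cxcr3 and Cxcr6. All 5 had a row in the table, and their levels were read in all 20 groups of the series, with the ligands set in macrophages and dendritic cells beside the receptors in T cells. The series profiled immune cells sorted from tumor and spleen of C57BL/6J mice. The animals were 3 or 12 months old and carried subcutaneous tumors of MC38, a colon carcinoma line, taken at day 10. All mice carried a tumor, so the spleens are those of tumor-bearing animals and no tumor-free spleen enters any comparison. Each of the 74 libraries was made by Smart-seq2, a full-length cDNA protocol, from 1000 cells sorted in 2 passes. The CD45+ gates were CD11b+ F4/80+ for macrophages (MF), CD11b+ CD11c+ MHCII+ for dendritic cells (DC), TCRb+ CD4+ CD25+ for regulatory T cells (Treg), TCRb+ CD4+ CD25- for conventional CD4 T cells (T4) and TCRb+ CD8+ for CD8 T cells (T8). Dendritic cells without CD11b fall outside the gate. Groups held 4 libraries, except spleen DC at both ages, tumor DC at 12 months and spleen T4 at 3 months with 3 each, and tumor T4 at 3 months with 2. Replicate 1 of each DC group was male, 4 libraries in all, and 70 were female. No label states that libraries of a group came from separate animals, so the p-values measure only the spread between these libraries.

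CXCL9 and CXCL10 are chemokines that cells secrete after exposure to interferon gamma, and CXCL10 also answers to type I interferon and to NF-kB. Both bind CXCR3, a G protein-coupled receptor of activated and memory T cells whose transcription depends on the T-box factor T-bet. CXCL16 is made as a transmembrane protein of antigen-presenting cells that can be shed by the proteases ADAM10 and ADAM17, and it binds CXCR6, a receptor known from effector and tissue-resident T cells. In tumors, these axes are known for the recruitment of T cells and for their placement beside antigen-presenting cells.

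The promoters are shown first because each of the 5 genes was called between the tissues in at least 1 cell type, and because the motifs below are the textbook sites through which interferon and NF-kB act on the ligands. Each is the 250 bases before the gene start that RefSeq gives, 5′ to 3′ on the coding strand, from its GRCm38.p6 table. An entry was found for 4 of the 5 genes. Capitals mark matches to an interferon-stimulated response element (GAAA, any 2 bases, GAAA) or a kB site (GGG, any 2 or 3 bases, TTCC) in the ligands, and to a RUNX site (TGTGGT, here on the opposite strand) in the receptors, with both strands searched.
Cxcl9 (chr5:92328080-92328329, minus strand): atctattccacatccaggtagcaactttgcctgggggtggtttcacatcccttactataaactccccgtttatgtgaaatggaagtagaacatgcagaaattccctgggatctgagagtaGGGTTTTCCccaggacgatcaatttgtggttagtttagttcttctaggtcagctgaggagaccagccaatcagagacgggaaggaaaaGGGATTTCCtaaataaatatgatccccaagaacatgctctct
Cxcl10 (chr5:92348890-92349139, minus strand): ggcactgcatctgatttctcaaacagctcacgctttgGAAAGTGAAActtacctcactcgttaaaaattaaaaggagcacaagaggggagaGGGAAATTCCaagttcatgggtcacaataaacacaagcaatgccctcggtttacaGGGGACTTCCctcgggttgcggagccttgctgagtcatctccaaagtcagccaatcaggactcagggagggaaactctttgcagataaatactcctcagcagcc
Cxcr3 (chrX:101734148-101734397, minus strand): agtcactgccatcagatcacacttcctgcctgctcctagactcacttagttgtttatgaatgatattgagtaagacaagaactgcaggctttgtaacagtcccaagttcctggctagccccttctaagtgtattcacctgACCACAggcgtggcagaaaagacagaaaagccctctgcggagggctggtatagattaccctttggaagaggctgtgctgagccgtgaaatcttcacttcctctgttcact
Cxcr6 (chr9:123806227-123806476, plus strand): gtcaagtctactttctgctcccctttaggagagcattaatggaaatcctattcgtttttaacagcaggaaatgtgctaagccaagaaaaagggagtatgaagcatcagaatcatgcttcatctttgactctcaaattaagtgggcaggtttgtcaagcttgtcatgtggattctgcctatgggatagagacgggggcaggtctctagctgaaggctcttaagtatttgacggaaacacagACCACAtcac

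The Cxcl10 promoter held 1 response element, GAAAGTGAAA at -213 to -204 from the start, which 2.98% of 32851 promoters of this length hold. It also held kB matches at -159 and at -104, the second of which was found by both spellings of the motif. The Cxcl9 promoter held kB matches at -130 and -42, and 8.26% of all promoters hold at least 1. A RUNX match lay at -110 in Cxcr3 and at -10 in Cxcr6, with 14.0% of promoters holding one, and another lay at -106 in Cxcl9, not capitalised. Neither the gamma-activated site TTCNNNGAA (7.02% of promoters) nor the T-box letters TCACACC (3.33%) occurred in any of the 4 windows. These are matches of letters in a short window and carry no measurement of binding.

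In the GENCODE annotation of mm10 the ligand genes Cxcl9 (chr5:92321347-92328079) and Cxcl10 (chr5:92346638-92348889) are both on the minus strand of chromosome 5. Cxcl16 lies at chr11:70453983-70459984 on the minus strand, Cxcr3 at chrX:101731535-101734269 on the minus strand and Cxcr6 at chr9:123806475-123811760 on the plus strand. For Cxcr3 the RefSeq and GENCODE starts differ. The Cxcr3 window printed above overlaps the GENCODE span, and its RUNX match lies inside the gene by that annotation. Of the 3021 exonic bases of Cxcl16, 552 are shared with Zmynd15 on the opposite strand. Whether the authors' counting used strand is not given in the sources used here, and reads from those bases cannot be assigned without it. Zmynd15 stood at 85.6 to 229 CPM, the count scaled to the library total, in tumor DC and at 108 to 204 CPM in tumor MF. In spleen it stood at 13.7 to 21.8 CPM in DC and 0 to 5.165 CPM in MF. The part of its reads in the Cxcl16 levels was not tested. Cxcl10 shares 133 of its 2252 exonic bases with Art3, which stayed at or below 29.4 CPM in every DC and MF library. In spleen DC the Art3 median was 19.7 CPM, beside 20.9 CPM for Cxcl10. In spleen T8 Art3 stood at 1.40 to 11.7 CPM, beside 0.157 to 7.33 CPM for Cxcl10. Tumor DC and MF held at most 5.69 and 14.1 CPM of Art3. The part of Art3 reads in the Cxcl10 levels was not tested. Cxcr6 lies within the span of Fyco1 and shares 0 exonic bases with it.

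Total counts per library ran from 1652812 to 9115858. The gate genes stood where the labels placed them, but spleen MF also carried many neutrophil and B cell transcripts, as given with Cxcl16. Within a type and tissue, 3 sets of libraries stood apart. Both tumor DC libraries numbered 2 carried 12690 and 13150 CPM of 10 summed macrophage markers. The other tumor DC libraries held 2919 to 5828 CPM and tumor macrophages 11020 to 17690 CPM. Spleen DC held 555.6 to 745.1 CPM, so every tumor DC library lay above every spleen DC library in these markers. The part of these transcripts in the differences of tumor DC from spleen DC or from MF was not tested. Spleen T4 libraries 1 and 4 at 3 months gave 8.84% and 11.9% of their counts to ribosomal protein genes, against 3.91 to 4.64% in the other spleen T4 libraries, and library 4 also reached 4297 CPM for the sum of 6 plasma cell genes, where the others lay between 48.0 and 150.2 CPM. Tumor T cell libraries numbered 4 had the highest mitochondrial share of their group in all 5 tumor T cell groups that hold one. Several edgeR results are also given without such a set. No ratio or correlation was recomputed with just such a set left out. In these bulk libraries, fewer cells of a type and less RNA per cell cannot be told apart.

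**Figure D1:**
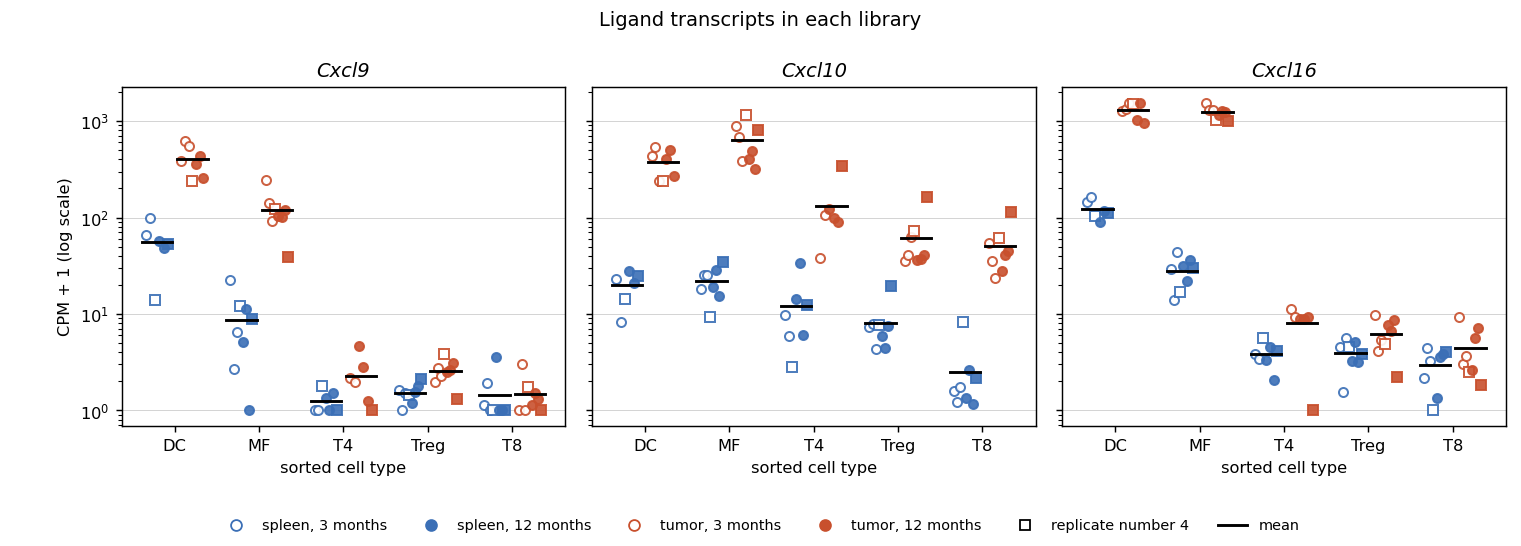
Levels of Cxcl9, Cxcl10 and Cxcl16 in each of the 74 libraries, as CPM + 1 on a log axis, for dendritic cells (DC), macrophages (MF), conventional CD4 T cells (T4), regulatory T cells (Treg) and CD8 T cells (T8). Blue is spleen and red is tumor, open points are 3 months and filled points 12 months, squares are libraries numbered 4 and bars are means; all 3 ligands are higher in tumor than in spleen DC and MF with no overlap, and Cxcl10 is also higher in tumor T cells.

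Cxcl9, the interferon gamma-induced ligand of CXCR3, was highest in tumor DC, followed by tumor MF and spleen DC. In tumor DC its lowest, median and highest levels were 239.6, 383 and 615 CPM, and in spleen DC they were 12.97, 54.4 and 98.5 CPM. In tumor MF they were 38.1, 111 and 242 CPM, and in spleen MF 0, 6.68 and 21.3 CPM. Tumor and spleen did not overlap in either type, whereas tumor DC and tumor MF met at 239.6 and 242 CPM. The MF spleen library at 0, numbered 3 at 12 months, allowed a level of up to 0.912 CPM at 3 counts of its total.

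Cxcl9 rose in tumor against spleen by a log2 fold change of 4.18 (SE 0.51, n = 8 against 8) in MF, with an edgeR quasi-likelihood adjusted p of 7.63e-06, and by 3.18 (SE 0.45, n = 7 against 6, adjusted p 0.000278) in DC. Each T cell type stayed at means of 0.242 to 1.56 CPM in both tissues. Those T cell libraries summed to 8 counts in spleen T4, 24 in tumor T4, 20 in spleen T8, 19 in tumor T8, 19 in spleen Treg and 65 in tumor Treg. Cxcl9 was removed by the low-count filter in the separate fits of T4, Treg and T8, so no tissue test was made there.

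Cxcl10, the second interferon-induced ligand of CXCR3, was highest in tumor MF. There its lowest, median and highest levels were 317, 587 and 1167 CPM, against 8.26, 21.2 and 33.7 CPM in spleen MF. Tumor DC gave 238, 400.2 and 533 CPM, against 7.18, 20.9 and 27.2 CPM in spleen DC. Tumor and spleen libraries were again separate in both types. The rise in tumor was 5.13 (SE 0.32, adjusted p 1.79e-09, 35.0-fold) in MF and 4.72 (SE 0.29, adjusted p 1.22e-07, 26.4-fold) in DC.

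Cxcl10 was also the ligand found in sorted T cells of the tumor. In tumor T4 the 6 libraries held 37.0 and 106 CPM at 3 months and 123, 96.8, 89.8 and 337.7 CPM at 12 months. The 7 spleen T4 libraries held 1.80 to 32.6 CPM. In tumor Treg the lowest, median and highest levels were 34.6, 40.1 and 164 CPM, against 3.39, 6.38 and 18.5 CPM in spleen. In tumor T8 they were 22.6, 42.4 and 112 CPM, against 0.157, 0.66 and 7.33 CPM in spleen. No tumor library overlapped with spleen in any of the 3 types, and the highest tumor library of each type was numbered 4 and came from 12 months.

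The edgeR log2 rises of Cxcl10 were 3.70 (SE 0.60, adjusted p 0.00121) in T4, 3.33 (SE 0.41, adjusted p 2.93e-06) in Treg and 5.46 (SE 0.61, adjusted p 5.23e-06) in T8. Without the libraries numbered 4 they were 3.04, 3.21 and 6.06, and all 3 still passed. The 10 macrophage markers summed to 6.58 to 51.9 CPM in tumor T4, 21.7 to 53.6 CPM in tumor Treg and 14.4 to 48.0 CPM in tumor T8, against 11020 to 17690 CPM in tumor MF. The 8 dendritic cell markers summed to 43.2 to 102 CPM, 19.1 to 48.0 CPM and 54.3 to 122 CPM in the same T cell types, against 827 to 2382 CPM in tumor DC. Cxcl16, which both myeloid types held at 960 CPM or more in the tumor, lay between 0 and 10.4 CPM in tumor T4. The 12-month T4 library with 337.7 CPM of Cxcl10 had no count of Cxcl16.

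The other myeloid lists did not all move one way between the tissues. The 5 monocyte markers, which include Ccr2 and Ly6c2, genes that T cells also express, summed to 1156 to 2935 CPM in tumor T4, 1427 to 3110 CPM in tumor Treg and 1966 to 5305 CPM in tumor T8. In spleen they summed to 44.3 to 131, 17.7 to 174 and 549 to 1199 CPM. The 9 neutrophil markers summed to 67.6 to 233 CPM in tumor Treg and 1.30 to 7.05 CPM in spleen Treg, while no such gap was seen in T8 (tumor 0 to 3.73 CPM, spleen 0 to 23.6 CPM) or T4 (tumor 0.47 to 11.5 CPM, spleen 0.182 to 5.15 CPM). The 6 markers of mature dendritic cells were lower in tumor than in spleen T cells. Median sums were 353 CPM against 938 CPM in T4, 286.5 against 935 CPM in T8 and 232.5 against 815 CPM in Treg. Sorted spleen DC had a median sum of 634.8 CPM for this list, below the spleen median of each T cell type. The list thus did not set DC apart from T cells in spleen. Its fall in tumor T cells is no measure of DC transcripts there. The part of myeloid transcripts in the Cxcl10 of these T cells was not tested.

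Cxcl16, the membrane-bound ligand of CXCR6, was held by both myeloid types of the tumor at similar levels. Its lowest, median and highest levels were 960, 1321 and 1547 CPM in tumor DC and 1007, 1257 and 1526 CPM in tumor MF. In spleen they were 89.5, 113 and 161 CPM in DC and 12.9, 28.8 and 43.1 CPM in MF. The tumor DC and MF libraries covered the same range, whereas no spleen MF library reached the lowest spleen DC library.

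The edgeR log2 rise of Cxcl16 in the tumor was 5.74 (SE 0.23, adjusted p 8.28e-13, 53.4-fold) in MF and 3.75 (SE 0.16, adjusted p 4.14e-10, 13.4-fold) in DC. The 9 neutrophil markers summed to 5542 to 41000 CPM in spleen MF and to 184 to 1120 CPM in tumor MF. In spleen MF they exceeded the 10 macrophage markers, at 2995 to 4704 CPM, which reached 11020 to 17690 CPM in tumor MF. The 8 B cell markers summed to 733.5 to 3224 CPM in spleen MF and 13.25 to 47.8 CPM in tumor MF. The F4/80+ spleen gate thus held many neutrophil and B cell transcripts. The part of these transcripts in the MF differences, between tissues or from DC, was not tested. Without the DC libraries numbered 2, the DC rises were 2.96 for Cxcl9, 4.36 for Cxcl10 and 3.64 for Cxcl16, and all 3 passed.

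In T cells Cxcl16 was low throughout, with tumor means of 7.14 CPM in T4, 5.19 CPM in Treg and 3.47 CPM in T8 and spleen means of 1.95 to 2.99 CPM. Its log2 difference between tumor and spleen Treg was 1.03 (SE 0.40), with an edgeR adjusted p of 0.034. That call was lost with the replicate number as a block (0.95, adjusted p 0.0585), without a low-count filter (adjusted p 0.0517) and without any of 7 single libraries. The differences in T4 (1.41, SE 0.56, adjusted p 0.0627) and T8 (0.90, SE 0.60, adjusted p 0.237) did not pass, although T4 did without the tumor library numbered 4 (adjusted p 0.00963) and by DESeq2 (1.42, adjusted p 0.0435).

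Counted together, 3 of the 5 genes were called between tumor and spleen in MF, all higher, where 51.7% of all genes tested were called. In DC 4 were called, 3 higher and Cxcr3 lower, against 47.1% of all genes. In Treg all 4 tested members were higher (53.5% of all genes called), and in T4 and T8 3 of 4 tested were higher (27.2% and 42.1%). The share of all genes called higher was 23.9% in MF, 24.4% in DC, 25.9% in Treg, 16.0% in T4 and 22.5% in T8, and the share called lower was 27.8%, 22.7%, 27.6%, 11.2% and 19.6%.

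The ligands differed between MF and DC within a tissue. In spleen, 3 members were called between the types, all lower in MF, where 52.9% of all genes were called: Cxcl9 by a log2 difference of -2.81 (SE 0.53, edgeR adjusted p 0.000143), Cxcl16 by -2.17 (SE 0.20, adjusted p 4.13e-10) and Cxcr3 by -1.86 (SE 0.52, adjusted p 0.0043). In tumor 2 were called, with 45.9% of all genes called. Cxcl9 remained lower in MF by -1.81 (SE 0.46, adjusted p 0.00262) and by -1.54 (adjusted p 0.0243) without the DC libraries numbered 2.

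Cxcl10 was higher in tumor MF than in tumor DC by 0.80 (SE 0.29, edgeR adjusted p 0.0276). That call was lost without the libraries numbered 4 (0.44, adjusted p 0.228), without sex as a covariate (0.68, adjusted p 0.0515) and without any of 6 single libraries, and it held without the DC libraries numbered 2 (1.25, adjusted p 0.00305). Cxcl16 differed by -0.17 (SE 0.18, adjusted p 0.473) between the tumor types. The tissue effect itself was larger in MF than in DC for Cxcl16, by 2.00 on the log2 scale (SE 0.26, adjusted p 9.46e-07), one of 2 members called where 23.3% of all genes were, with Cxcl9 a further one without a low-count filter (1.00, adjusted p 0.000226). The other member called in the main fit was Cxcr3, described with the receptors. The part of Zmynd15 reads in the Cxcl16 difference was not tested.

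The balance of the CXCR3 ligands shifted in DC and not detectably in MF. As a log2 ratio of Cxcl9 to Cxcl10 counts, with 0.5 added to each, spleen DC averaged 1.45 (SD 1.25, n = 6) and tumor DC 0.11 (SD 0.51, n = 7). The difference was -1.34, with a two-sided exact permutation p of 0.0187 (0.0233 adjusted by Benjamini-Hochberg over 5 ratio tests). It did not pass within either age alone, at -1.44 for 3 months and -1.3 for 12 months, nor with tissues permuted within replicate numbers (-1.36). Without the spleen DC library numbered 3 at 3 months, whose age labels conflict, it was -0.878 and did not pass, nor did it without the one numbered 1 (-1.32, exact permutation adjusted p 0.0505 for each). Tumor and spleen MF averaged -2.44 (SD 0.95, n = 8) and -2.17 (SD 2.24, n = 8), a difference of -0.27 (exact permutation p 0.769). Gene lengths cancel in these differences, which compare the same ratio between tissues.

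**Figure D2:**
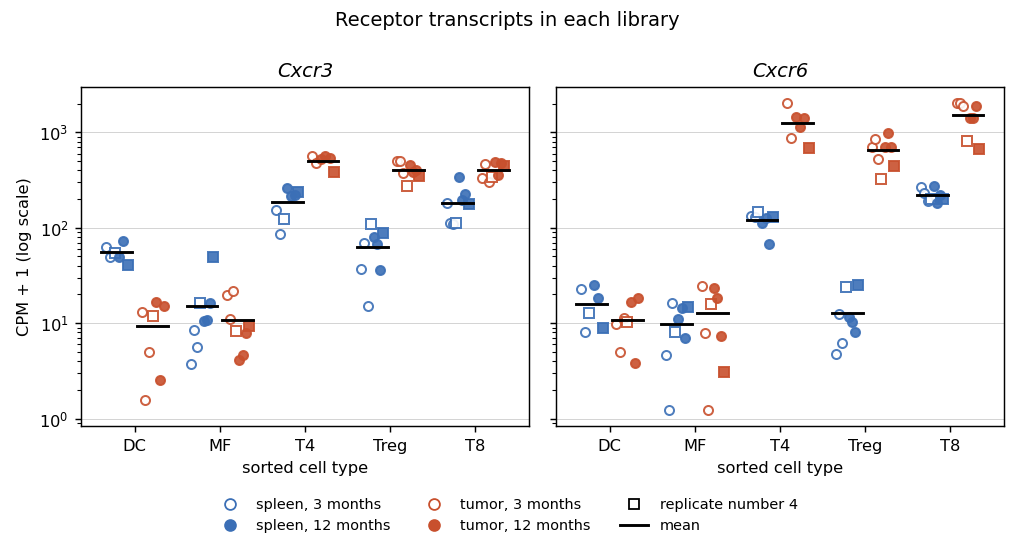
Levels of Cxcr3 and Cxcr6 in each library, as CPM + 1 on a log axis, with the same symbols as for the ligands. Both receptors are higher in tumor than in spleen in T4, Treg and T8; squares show that libraries numbered 4 are the lowest tumor T cell libraries for Cxcr6, at 326 to 812 CPM.

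Cxcr3, the receptor of CXCL9 and CXCL10, was highest in T cells in both tissues and was higher in tumor T cells of all 3 types. In spleen, Treg overlapped with DC, at means of 61.8 and 54.1 CPM. In T4 the lowest, median and highest Cxcr3 levels were 379.5, 529.6 and 566 CPM in tumor and 84.5, 214 and 259 CPM in spleen. In Treg they were 276, 396 and 505 CPM in tumor and 14.1, 67.2 and 108 CPM in spleen. In T8 they were 299, 398 and 489 CPM in tumor and 108, 177 and 336 CPM in spleen. T4 and Treg did not overlap between the tissues, whereas the highest spleen T8 library, replicate 1 at 12 months, exceeded 2 tumor T8 libraries.

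The edgeR log2 rise of Cxcr3 was 2.96 (SE 0.31, adjusted p 9.42e-07) in Treg, 1.64 (SE 0.15, adjusted p 3.78e-09) in T4 and 1.30 (SE 0.14, adjusted p 1.89e-07) in T8. In tumor the 3 types lay close together, at means of 506 (SD 70.3) CPM in T4, 406 (SD 76.7) CPM in Treg and 402 (SD 77.0) CPM in T8, and neighbours in that order overlapped. In spleen T4 and T8 averaged 184 (SD 64.6) and 180.2 (SD 77.1) CPM and Treg 61.8 (SD 31.1) CPM, below every T8 library.

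DC of the spleen carried Cxcr3 as well, at 40.03 to 71.8 CPM in 6 libraries, against 0.549 to 15.7 CPM in 7 tumor DC libraries. The groups did not overlap, and the fall in tumor was -2.43 (SE 0.58, edgeR adjusted p 0.00637). It was -1.93 (adjusted p 1.02e-05) without the tumor DC libraries numbered 2, which held the lowest levels, and did not pass without the 2 spleen libraries whose age labels conflict (-2.28, adjusted p 0.0768). In spleen DC the 8 T cell markers summed to 59.8 to 272 CPM, the 6 plasmacytoid dendritic cell markers to 901 to 1897 CPM and the 8 B cell markers to 699 to 4056 CPM. In tumor DC the same lists gave 2.5 to 46.05, 478 to 574 and 21.6 to 41.9 CPM. Cd3e, a subunit of the T cell receptor complex, was at 0 to 3.29 CPM in spleen DC. It is a single gene, and the T cell sum of 59.8 to 272 CPM came mostly from others. The part of these cells in the Cxcr3 difference was not tested.

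Macrophages held Cxcr3 at 2.73 to 48.5 CPM in spleen and 3.12 to 20.6 CPM in tumor, and the log2 difference of -0.29 (SE 0.40, edgeR adjusted p 0.569) did not pass. The tissue effect of Cxcr3 differed between MF and DC by 2.13 (SE 0.72, adjusted p 0.0348). It was 1.63 (adjusted p 0.0414) without the DC libraries numbered 2, and it did not pass without any of 11 single libraries, with adjusted p from 0.0501 to 0.0715.

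Cxcr6, the receptor of CXCL16, showed the largest tissue difference of the 2 receptors in each T cell type. Its lowest, median and highest levels in T8 were 673, 1644 and 2044 CPM in tumor and 180.4, 209.7 and 275 CPM in spleen. In T4 they were 683, 1287 and 2027 CPM in tumor and 66.0, 129 and 145 CPM in spleen. In Treg they were 326, 694 and 981 CPM in tumor and 3.76, 9.98 and 23.8 CPM in spleen. The tissues did not overlap in any of the 3 types, and spleen Treg lay in the range of the myeloid cells, which held 0.215 to 24.1 CPM in both tissues.

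The edgeR log2 rise of Cxcr6 in tumor was 6.03 (SE 0.38, adjusted p 2.84e-09, 65.4-fold) in Treg, 3.47 (SE 0.22, adjusted p 1.86e-11, 11.1-fold) in T4 and 2.85 (SE 0.21, adjusted p 2.97e-08, 7.23-fold) in T8. Libraries numbered 4 were the lowest in all 5 tumor T cell groups that hold one, at 683 CPM in T4, 326 and 440 CPM in Treg and 812 and 673 CPM in T8. Without them the rises were 6.80, 3.64 and 3.01, and all 3 passed. The 6 NK cell markers, which include Gzma, a granzyme also made by CD8 T cells, summed to 29.3 to 178 CPM in spleen T8 and 196 to 771 CPM in tumor T8, and their part was not tested. In MF and DC the differences of 0.71 (SE 0.67) and -0.20 (SE 0.38) did not pass.

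**Figure D3:**
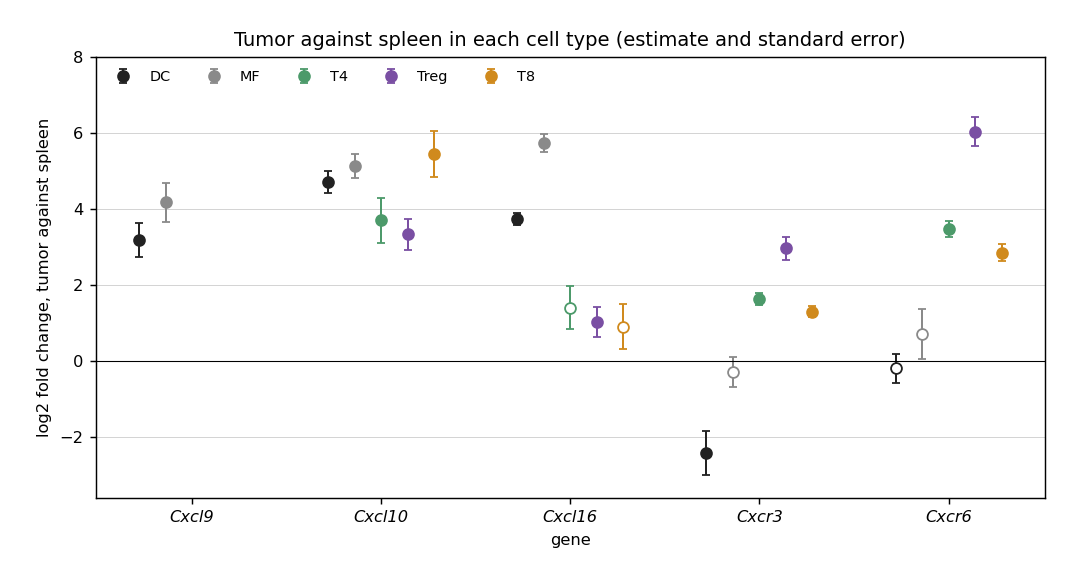
Log2 fold change of each gene in tumor against spleen with its standard error from edgeR, for the 5 cell types; filled points passed an adjusted p of 0.05 and open points did not, and Cxcl9 was not tested in T cells. The ligands reach 3.18 to 5.74 in DC and MF, and Cxcr6 reaches 6.03 in Treg.

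The regulatory compartment stood apart in the spleen. Against spleen T8, Treg were lower in both receptors, stated as T8 minus Treg at 1.69 (SE 0.24, edgeR adjusted p 1.89e-07) for Cxcr3 and 4.42 (SE 0.33, adjusted p 1.15e-13) for Cxcr6. Cxcl10 was lower in T8, by -2.36 (SE 0.68, adjusted p 0.00449), which made 3 members called where 45.6% of all genes were. Against spleen T4, Treg were lower by -1.61 (SE 0.24, adjusted p 9.82e-07) for Cxcr3 and by -3.52 (SE 0.32, adjusted p 4.22e-11) for Cxcr6, the 2 members called, with 42.2% of all genes called. The median log2 difference of all genes was -0.13 for T8 against Treg and 0.17 for Treg against T4 in spleen, so each value is to be read against that shift.

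In tumor, Cxcr6 was the only member called by edgeR between T8 and Treg, at 1.23 (SE 0.27, edgeR adjusted p 0.000276), and between Treg and T4, at -0.94 (SE 0.29, adjusted p 0.00966), with 47.2% and 41.4% of all genes called. The second call was lost without the tumor T4 library numbered 1 at 3 months (-0.47, adjusted p 0.327), which held 2027 CPM. Between T8 and Treg, Cxcl9 was also called without the tumor T8 library numbered 2 at 3 months (-2.50, adjusted p 0.0377). Cxcr3 differed by 0.00 (SE 0.22, adjusted p 1.00) between tumor T8 and Treg. No member was called between tumor T8 and T4, where 15.3% of all genes were, and DESeq2 called 0. Cxcl10 alone had an unadjusted p under 0.05 there, at -1.05 (SE 0.48, edgeR adjusted p 0.141), as had 5035 of 18066 genes. Cxcl10 was called with the replicate block (-1.25, adjusted p 0.0259) and without the libraries numbered 4 (-1.12, adjusted p 0.00841). Without a low-count filter it was also called (-1.03, edgeR adjusted p 3.12e-06), at a smaller SE of 0.189. For Treg against T4 in tumor, Cxcl10 gave -0.81 (SE 0.48, adjusted p 0.178) and was likewise called with the block (-1.02, adjusted p 0.0319), without the filter (adjusted p 0.000107), without the libraries numbered 4 (adjusted p 0.0117) and without the tumor Treg library numbered 4 at 12 months (-1.18, adjusted p 0.0399).

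The tissue effect of the receptors differed between Treg and the other T cells. It was smaller in T8 than in Treg, with edgeR differences of T8 minus Treg of -1.68 (SE 0.32, adjusted p 0.00025) for Cxcr3 and -3.20 (SE 0.41, adjusted p 3.57e-07) for Cxcr6, with 13.2% of all genes called. It was larger in Treg than in T4 by 1.34 (SE 0.35, adjusted p 0.0107) for Cxcr3 and 2.58 (SE 0.44, adjusted p 0.000107) for Cxcr6, with 8.98% of all genes called. The Cxcr3 difference from T4 was lost without the 2 ribosome-rich spleen T4 libraries (1.06, adjusted p 0.153) and without the tumor T4 library numbered 3 at 3 months (1.29, adjusted p 0.0589). Between T8 and T4 no member's tissue effect was called by edgeR, where 4.82% of all genes were. At an unadjusted p under 0.05 the count was 0, and it was 0 with DESeq2. The tissue effect of Cxcl10 was 2.12 (SE 0.82, edgeR adjusted p 0.0875) for T8 minus Treg. It was called by DESeq2 (1.96, adjusted p 0.0496), with the replicate block (2.17, adjusted p 0.024), without a low-count filter (adjusted p 2.24e-09), without the libraries numbered 4 (2.83, adjusted p 0.000576), and without spleen T8 replicate 4 at 3 months (3.00, adjusted p 0.0129) or tumor Treg replicate 4 at 12 months (2.53, adjusted p 0.021). For T8 minus T4 it was 1.77 (SE 0.88, edgeR adjusted p 0.251), and was called without the filter (adjusted p 2.59e-05) and without the libraries numbered 4 (3.02, adjusted p 0.0017); Cxcr6 was also called without the filter (-0.59, adjusted p 0.0149).

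Foxp3 transcripts were also present in the CD25- T4 libraries. Foxp3, which encodes the lineage factor of Treg, was at 21.2 to 79.9 CPM in spleen T4 and 76.1 to 354 CPM in tumor T4, against 889 to 1194 CPM in spleen Treg and 869 to 1310 CPM in tumor Treg. The part of those transcripts in the T4 values was not tested. In spleen T8 minus T4 the called members were Cxcr6 at 0.90 (SE 0.29, edgeR adjusted p 0.0357) and Cxcl10 at -2.82 (SE 0.71, adjusted p 0.00626), where 11.7% of all genes were called. Neither passed without the 2 ribosome-rich T4 libraries, at 0.99 (adjusted p 0.223) and -2.76 (adjusted p 0.0984), and Cxcr6 did not pass without any of 6 single libraries (adjusted p 0.058 to 0.0756).

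**Figure D4:**
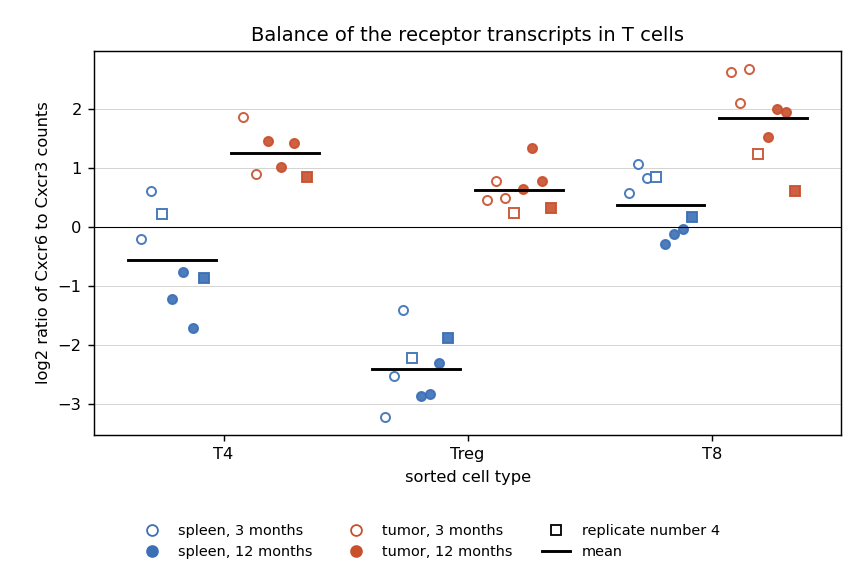
Log2 ratio of Cxcr6 to Cxcr3 counts (0.5 added to each) in each T cell library, with the same symbols. Tumor libraries lie above spleen libraries of their type on average, by 1.46 in T8, 1.81 in T4 and 3.04 in Treg.

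The receptor balance moved toward Cxcr6 in the tumor in all 3 types. In Treg the log2 ratio of Cxcr6 to Cxcr3 averaged 0.63 (SD 0.35, n = 8) in tumor and -2.41 (SD 0.59, n = 8) in spleen, a shift of 3.04 with an exact two-sided permutation p of 0.000155 (0.000777 adjusted over 5 ratio tests). In T4 it averaged 1.25 (SD 0.40, n = 6) and -0.56 (SD 0.82, n = 7), a shift of 1.81 (exact permutation adjusted p 0.00194). In T8 it averaged 1.84 (SD 0.70, n = 8) and 0.38 (SD 0.51, n = 8), a shift of 1.46 (exact permutation adjusted p 0.00194). Treg and T4 libraries did not overlap between the tissues. In T8 they did, since the tumor minimum of 0.60, in the 12-month library numbered 4, was below the spleen maximum of 1.06.

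Across tumor libraries of one type the paired genes did not track each other beyond what the 5 tests allow. Cxcr3 and Cxcr6 gave a Pearson r of 0.84 over 6 T4 libraries (exact permutation p 0.0278, adjusted 0.0694) with a Spearman rho of 0.60 (exact permutation p 0.242), and r fell to 0.04 without the 2 libraries farthest from the Cxcr3 median. Over 8 Treg libraries r was 0.78 (exact permutation p 0.023, adjusted 0.0694), rho 0.69 (exact permutation p 0.0694), and r was 0.61 without 2. Over 8 T8 libraries r was -0.06 (exact permutation p 0.841), rho -0.29 (exact permutation p 0.501), and r was 0.12 without 2. Cxcl9 and Cxcl10 gave r of 0.11 over 8 MF libraries (exact permutation p 0.824), with rho 0.38 (exact permutation p 0.36), and r was 0.51 over 7 DC libraries (exact permutation p 0.242), with rho 0.46 (exact permutation p 0.302). Without 2 libraries r was 0.54 in MF and -0.0031 in DC. Each correlation is on log2(CPM + 1) and shares library depth, and the squares in the plot of the receptors show that libraries numbered 4 lie at its low end for Cxcr6.

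**Figure D5:**
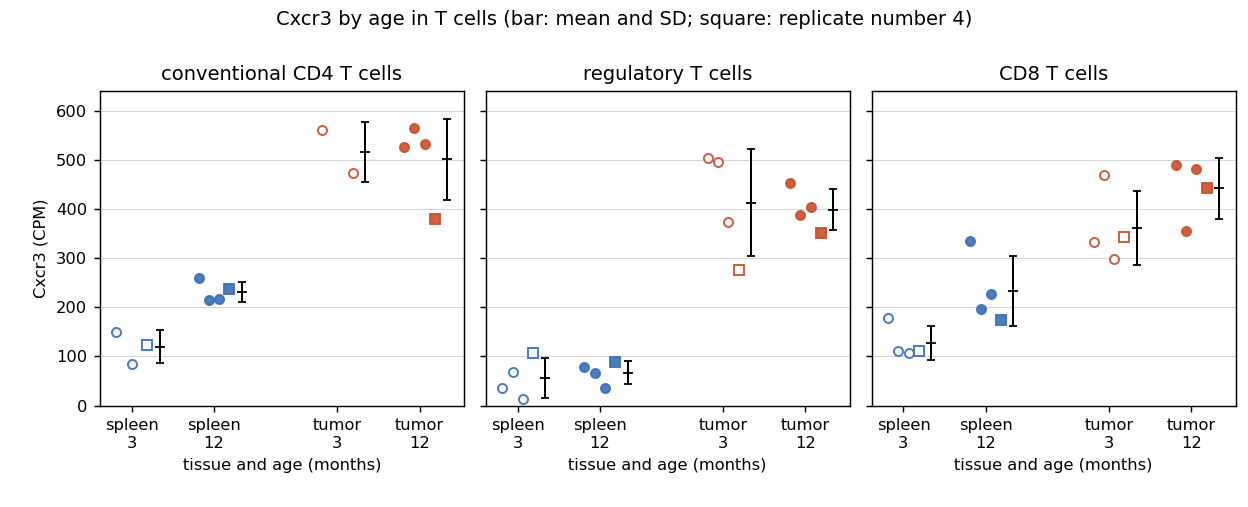
Cxcr3 level (CPM) by tissue and age in T4, Treg and T8; each point is a library, squares are libraries numbered 4 and bars give the mean and SD. Spleen T4 and T8 average 120 and 127 CPM at 3 months and 232 and 233 CPM at 12 months.

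Age was the second axis of the design, and Cxcr3 in splenic T cells came closest to a difference. In spleen T8 it was 179, 110.2, 108 and 110.3 CPM at 3 months and 336, 196, 227 and 175 CPM at 12 months. In spleen T4 it was 151, 84.5 and 124 CPM at 3 months and 259, 214, 218 and 236 CPM at 12 months. The T4 groups did not overlap, and the T8 groups crossed at 1 library each, at 179 and 175 CPM.

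The log2 difference of Cxcr3 with age was 0.89 (SE 0.20) in spleen T8 and 0.76 (SE 0.22) in spleen T4, with edgeR adjusted p of 0.0555 and 0.0624, so neither was called. With DESeq2 both were, at 0.89 (adjusted p 0.000651) and 0.77 (adjusted p 0.0232). In edgeR with all 4 groups of the type in one fit both were called as well (adjusted p 0.0423 and 0.0327). With no low-count filter both were called too (edgeR adjusted p 1.81e-08 and 0.0271). For Cxcl10 in tumor T8 against T4 that setting gave a smaller SE, and its share of all genes called is not reported here. With the replicate number as a block T8 was called (0.88, adjusted p 1.01e-05) and T4 was not. Without the 2 ribosome-rich T4 libraries the T4 value was 1.39 (adjusted p 0.00137), with only the lowest library, at 84.5 CPM, left at 3 months and assumed to vary like the others. In spleen Treg Cxcr3 was 36.1, 67.6, 14.1 and 108 CPM at 3 months and 78.6, 66.8, 35.5 and 88.1 CPM at 12 months, a difference of 0.24 (SE 0.57, adjusted p 0.985) with overlapping groups.

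Markers of other cells moved with age in the same spleen gates. In T4 the 4 regulatory T cell markers summed to 187.5, 591.5 and 228 CPM at 3 months and 855, 1176, 1022 and 1044 CPM at 12 months, with no overlap. Foxp3 rose by 0.97 (SE 0.26, edgeR adjusted p 0.0469) and Ikzf2, which encodes Helios, by 1.63 (SE 0.31, adjusted p 0.00965). In T8 the 6 NK cell markers summed to 79.6, 29.3, 50.9 and 52.6 CPM at 3 months and 178, 117, 136 and 93.6 CPM at 12 months, also with no overlap. Klre1 and Klrb1c, NK receptor genes, rose by 1.95 and 1.71, and Cd22, a B cell gene, by 1.47. The part of these transcripts in the Cxcr3 levels was not tested.

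Genes of the other lists also moved with age in these T cells, and they, like the markers above, are named after their values were seen. Of the other chemokine receptors and chemokines, only genes that moved are named, so they do not describe their lists. Of all genes tested, 0.925% were called higher with age in spleen T8 and 1.96% in spleen T4. In spleen T8, 2 of 6 transcription factors rose, Bhlhe40 by 2.02 (SE 0.35, edgeR adjusted p 0.00218) and Eomes by 0.76 (SE 0.16, adjusted p 0.016), while Tbx21, which encodes T-bet, gave 0.87 (SE 0.27, adjusted p 0.185). Among other chemokine receptors Ccr2 rose by 1.62, and Ccr9, a gut-homing receptor, fell by 0.72. The chemokines Ccl5 and Ccl4 rose by 2.30 and 1.39. In spleen T4, Bhlhe40 rose by 3.13 (SE 0.30, adjusted p 2.07e-05), and Ccr8, Cxcr5, Ccl5 and Ccl4 rose by 1.76, 1.53, 1.25 and 2.85. Cxcr6 did not, at -0.01 (SE 0.13, adjusted p 0.998) in T8 and -0.50 (SE 0.23, adjusted p 0.229) in T4.

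No member was called with age by edgeR in any of the 10 tissue and type combinations. The share of all genes called in spleen was 0.0% in MF, 0.593% in DC, 0.0489% in Treg, 3.92% in T4 (1.96% in each direction) and 1.02% in T8. In tumor it was 0.0% in MF, DC, Treg and T8 and 0.0311% in T4. An unadjusted edgeR p under 0.05 was held by Cxcr3 in spleen MF and T8, Cxcl10 in spleen DC and Cxcr3 in tumor MF. In spleen T4 it was held by Cxcl10, Cxcr3 and Cxcr6, and by no member in the other combinations. Of all genes, 736 of 12131 held it in spleen MF, 1535 of 12650 in spleen DC and 2297 of 11726 in spleen T4. In spleen T8 it was 909 of 11677, and in tumor MF 663 of 11007. DESeq2 called Cxcr3 in spleen T8 and T4 and no other member.

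In the tumor, Cxcr3 in T8 was 333, 470.2, 299 and 343 CPM at 3 months and 489, 354.5, 482 and 442 CPM at 12 months, a difference of 0.31 (SE 0.16, edgeR adjusted p 1.00). Cxcl9 in tumor MF was 242, 140.0, 90.7 and 123 CPM at 3 months and 103, 100.4, 118 and 38.1 CPM at 12 months, a difference of -0.80 (SE 0.40, adjusted p 0.809). Cxcl10 in tumor MF was 881, 684, 382 and 1167 CPM and then 399, 490.1, 317 and 810.0 CPM, a difference of -0.70 (SE 0.38, adjusted p 0.818). The ages overlapped in all 3 cases. Cxcl16 in tumor MF spanned 1034 to 1526 CPM at 3 months and 1007 to 1285 CPM at 12 months.

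The interaction of age with tissue, the test of whether the age effect differs between tumor and spleen, called 0 members in each type by edgeR and by DESeq2. All genes were called at 0.0% in MF, DC and Treg, 0.668% in T4 (0.0273% higher, 0.641% lower) and 0.143% in T8. Cxcr3 had an unadjusted edgeR p under 0.05 in MF (-2.86, SE 0.80, adjusted p 0.945), where 619 of 12876 genes did. It also had one in T4 (-0.86, SE 0.31, adjusted p 0.287), where 1516 of 14661 genes did. The first was called without a low-count filter (adjusted p 0.00371) and the second without the ribosome-rich libraries (-1.49, adjusted p 0.0217), a fit that leaves 1 spleen T4 library at 3 months and takes it to vary like the other groups. In spleen MF the Cxcr3 level of 48.5 CPM came from the 12-month library numbered 4, whose 8 T cell markers summed to 207 CPM, the highest of the spleen MF libraries.

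Of the interferon gamma induced genes, a list of 17 that holds GTPases of the Gbp and Irg families and parts of antigen presentation, 16 of 16 tested rose in MF, 15 of 16 in DC with 1 lower, 14 of 15 in Treg, 13 of 15 in T4 and 14 of 15 in T8. Of all genes tested, 23.9% rose and 27.8% fell in MF, 24.4% and 22.7% in DC, 25.9% and 27.6% in Treg, 16.0% and 11.2% in T4, and 22.5% and 19.6% in T8, which are the shares to set beside this and each following list. The median log2 changes of the 17 genes' tested members were 2.25, 1.84, 1.43, 1.72 and 1.18, beside medians of all genes from -0.06 to 0.04. In MF the smallest adjusted p belonged to Gbp6 (4.18, SE 0.22), Gbp7 (2.799, SE 0.15) and Gbp3 (2.04, SE 0.12), and in DC to Irgm1 (1.84), Igtp (2.56) and Gbp3 (2.68). In T cells Cd274, which encodes PD-L1, was among the leading 3 in each type, at 1.77 in Treg, 2.00 in T4 and 1.67 in T8. Gbp genes are close paralogs, and reads shared between copies could be split by the authors' counting.

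Of the 8 genes of the interferon gamma signal itself, 5 of 7 tested rose and 2 fell in MF, 6 of 8 rose in DC, 5 rose and 1 fell in Treg, 6 rose and 1 fell in T4, and 6 rose and 2 fell in T8. Ifng, the cytokine, was at 97.3 to 848 CPM in tumor T8 and 99.9 to 218 CPM in tumor T4, against 1.71 to 15.3 CPM and 3.05 to 60.4 CPM in spleen. It rose by 6.20 (SE 0.46, edgeR adjusted p 1.7e-07) in T8 and 3.54 (SE 0.32, adjusted p 1.93e-07) in T4, and tumor Treg held 1.36 to 5.69 CPM. The receptor chain Ifngr1 rose by 2.04 in T8, 3.59 in T4 and 2.71 in Treg and fell by 0.91 in MF. The feedback inhibitor Socs1 rose by 3.44 in MF and 3.34 in DC.

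Among 6 other parts of the axes, 4 rose and 1 fell of 6 tested in MF, 3 and 1 of 5 in DC, 2 and 1 of 3 in Treg, 3 and 0 of 4 in T4, and 1 and 1 of 4 in T8, the last near the shares of all genes (22.5% and 19.6%). Cxcl11, a further CXCR3 ligand, is annotated as a polymorphic pseudogene in this annotation. Its transcript was at 16.1 to 81.1 CPM in tumor MF and 10.5 to 51.4 CPM in tumor DC, against 0 to 1.73 and 0.16 to 3.86 CPM in spleen, and rose by 6.35 (SE 0.60, edgeR adjusted p 1.21e-07) and 3.70 (SE 0.53, adjusted p 0.000101). Adam10, the main CXCL16 sheddase, rose by 0.90 in DC, 0.62 in Treg, 0.56 in T4 and 0.38 in T8. Dpp4, a peptidase that trims CXCR3 ligands, fell by 1.91 in MF, 1.40 in Treg and 0.45 in T8.

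Receptor signalling genes, 10 measured, rose in 6 cases in T8, 8 in Treg, 5 in T4 with 1 lower, 4 in DC and 3 in MF with 3 lower, the last near the shares of all genes (23.9% and 27.8%). Rgs1, a regulator that dampens G protein signals of chemokine receptors, led in T8 (5.20, SE 0.19), T4 (4.24, SE 0.17), Treg (1.78, SE 0.11) and MF (5.83, SE 0.28), and was among the leading 3 in DC (2.95, SE 0.25). The kinases Grk6 and Grk2, which desensitise such receptors, fell by 1.90 and 1.22 in MF. Of the 6 transcription factors of effector and resident T cells, 4 rose in each T cell type, with 1 lower in T4 and 1 in Treg, where 5 of the 6 were tested. Tbx21 was at 68.8 to 115 CPM in tumor Treg against 3.55 to 19.2 CPM in spleen Treg, a rise of 3.68 (SE 0.20, edgeR adjusted p 2.86e-12), and rose by 1.58 in T8. Runx3 rose by 2.12 in Treg and 1.31 in T4, and Bhlhe40 by 5.69 in T8 and 4.06 in T4.

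Other chemokine systems moved as well. Of 19 other receptors, 8 rose and 3 fell of 14 tested in T8, 11 and 3 of 15 in T4, 9 and 3 of 14 in Treg, 7 and 4 of 13 in DC, and 6 and 6 of 14 in MF. Ccr8, a receptor of tumor Treg, rose by 3.30 in Treg and 4.11 in T4. Of 26 other chemokines, 16 of 19 tested rose in DC and 11 of 16 in MF, with 1 and 2 lower, and 6 of 7 rose in T8, 6 of 8 in T4 and 4 of 5 in Treg. The monocyte attractants Ccl7 (12.34, SE 0.71) and Ccl12 (9.77, SE 0.49) were among the leading 3 in MF and Ccl17 (9.88, SE 0.76) in DC.

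Over the 20 group means, the genes most like each member were found by Pearson r of log2(CPM + 1) among 10818 genes, as a description. For Cxcl9 these were Cxcl16 (0.98), Ifi205 (0.98) and Ocstamp (0.98), and for Cxcl16 they were F11r (0.99), Ocstamp (0.98) and Slamf9 (0.98), with Cxcl9 at rank 4. For Cxcl10 they were Ifih1 (0.94), a sensor of double-stranded RNA, Hspa1a (0.94) and Ltbp3 (0.93), and Cxcl9 followed at rank 570 with 0.67. For Cxcr3 they were Sh2b1 (0.96), Dcaf5 (0.96) and Crot (0.94), with Cxcr6 at rank 35, and for Cxcr6 they were Atxn1 (0.95), Fasl (0.94), which encodes Fas ligand, and Crot (0.94), with Cxcr3 at rank 13. The receptors gave 0.91 with each other. Group means share cell type and tissue, so these values restate the pattern of levels across the 20 groups.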

How the data were processed

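RNA was measured in 74 libraries. Per the submitters' processing notes, which name STAR 2.5.3, featureCounts and the mm10 build, the authors deposited 1 table of raw counts per gene symbol; the sources used here give no annotation release or strand setting. Groups follow library titles, also for 2 spleen DC libraries (3 months, replicates 3 and 4) whose age tag gives 12 months. The members and gene lists were chosen with earlier results of these data known.

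Levels are CPM of the library's total, from 1652812 to 9115858 counts. Genes were filtered with filterByExpr, scaled by TMM and tested with edgeR 4.0.16 (limma 3.58.1, R 4.3.3): robust quasi-likelihood with a trended dispersion, two-sided, Benjamini-Hochberg over all genes tested, threshold 0.05. Tissue effects and interactions came from 4 groups per type, age effects from 2 groups, type contrasts from all 45 T cell or 29 myeloid libraries, with sex as a covariate where DC entered. SE is the log2 fold change over the root of F. Ratios and correlations used exact permutation over libraries. The limit for a count of 0 is 3 counts and covers counting error only. The code was tested on simulated counts. From each list up to 3 genes with the smallest adjusted p for tumor against spleen, and Cxcl11, are named; genes named for age fall outside that rule. Some genes that the rule names are not reported here. Likeness needed 10 CPM in 1 group.

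Alternatives were DESeq2 size factors, the DESeq2 1.42.0 Wald test, no filter, the replicate block, 4 groups in one fit, no sex covariate, the conflicting libraries left out or regrouped, and each library left out; the fits without libraries numbered 4, DC numbered 2 or the ribosome-rich libraries were chosen after seeing the data. Libraries with one number met the pairing check (every residual correlation over 0.1 in 3 or more pairs) only in tumor Treg across ages, at 0.111 to 0.351, where the block changed no member's call.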

Additional observations from a re-analysis of the deposited data

Results flagged for a closer look

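In 75 groups of 4 libraries tested over the members, 11 had 1 library far from the other 3. The cut-off flags about 1 in 20 groups of normal, independent values. Here the genes share libraries and some groups rest on few counts, so that rate is no yardstick for the 11. Cxcl10 stood out high in the libraries numbered 4 of tumor Treg at 12 months (163.6 CPM), tumor T4 at 12 months (337.7 CPM) and spleen T8 at 3 months (7.33 CPM), and low in spleen Treg replicate 3 at 3 months (3.39 CPM). Cxcr6 stood out low in tumor T8 replicate 4 at 3 months (812 CPM), and Cxcl16 low in tumor T4 replicate 4 at 12 months (0 CPM, which allows up to 1.41 CPM) and in spleen T8 replicate 1 at 12 months (0.34 CPM). Cxcr3 stood out high in spleen MF replicate 4 at 12 months (48.5 CPM) and in spleen T8 replicate 1 at 3 months (179 CPM). Cxcl9 stood out high in spleen T8 replicate 1 at 12 months (2.55 CPM) and replicate 2 at 3 months (0.924 CPM), near the level of a few counts.

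The tissue effect differed between cell types by an edgeR test of the difference in 6 cases. It differed for Cxcr3 by -1.68 and for Cxcr6 by -3.20 between T8 and Treg, by 1.34 and 2.58 between Treg and T4, and for Cxcr3 by 2.13 and for Cxcl16 by 2.00 between MF and DC.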

How the results depend on the processing

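Counts of members called, ratios and correlations were recomputed under the alternatives. Of these values 965 stayed the same, and 6 of those changed sign with no call on either side. Same means within 1.5 times for a count, and the same side of the threshold for a ratio or correlation. Beyond these, 52 counts moved, 6 ratios lost a call and 1 correlation gained one. Without a low-count filter the members called were 1 for the MF interaction (0 in the main fits), 1 each for age in spleen T4 and T8 (0), 1 for tumor T8 against T4 (0), 2 for tumor Treg against T4 (1) and 2 for the tissue effect of T8 against T4 (0). In that setting the SE of Cxcl10 was 0.189 for tumor T8 against T4 and 0.315 for the tissue effect of T8 minus Treg. Both were smaller than in the main fits, at nearly the same estimates, so these calls of Cxcl10 rest on a smaller estimated spread. DESeq2 and the fit of all 4 groups gave 1 each for age in spleen T4 and T8. With the replicate block the counts were 1 for age in spleen T8, 1 for tumor T8 against T4 and 2 for tumor Treg against T4. Block and pairing changed no other count by over 1.5 times; the DC ratio of Cxcl9 to Cxcl10 with tissues permuted within replicate numbers was -1.36. Without libraries numbered 4 the counts were 1 for tumor T8 against T4, 2 for tumor Treg against T4, 1 for the tissue effect of T8 against T4 and 1 for tumor MF against DC (2), which was also 1 with no sex covariate. Without the ribosome-rich T4 libraries they were 1 for age in spleen T4, 1 for the T4 interaction (0), 0 for spleen T8 against T4 (2) and 1 for the tissue effect of Treg against T4 (2).

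With each library left out in turn, counts ran from 0 to 1 for age in spleen T4 and T8, 1 to 2 for spleen T8 against T4, tumor T8 against Treg, tumor MF against DC and the tissue effects of MF against DC and of Treg against T4, and 0 to 2 for tumor Treg against T4. The DC ratio ran from -1.63 to -0.878, and was -1.44 at 3 months and -1.3 at 12 months alone, neither of which passed. The T4 ratio of Cxcr6 to Cxcr3 at 3 months alone was 1.16, with 2 against 3 libraries too few to pass. The T4 correlation of Cxcr3 and Cxcr6 was 0.93 on TMM-scaled totals, past its threshold. For single members no alternative reversed a called direction, 4272 values kept their side of the threshold, 40 lost a call and 35 gained one, and 154 changed sign with no call on either side. Depth limits Cxcl9 and Cxcl16 in T cells, which rest on 8 to 216 counts summed over a type and tissue.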

Other observations

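In the tumor, 8 groups hold a library numbered 4, and its Cxcl10 was the highest of its group in 7, all but DC at 3 months. The levels were 1167 and 810.0 CPM in MF at 3 and 12 months, against 317 to 881 CPM in the other MF libraries, and 61.1 and 112 CPM in T8, against 22.6 to 52.8 CPM. Cxcl16 and Cxcr6 were the lowest of their group in 6 of 8 each. The mitochondrial share of counts in these libraries was 9.26% and 8.34% in T8 and 10.9% in T4, against 5.22 to 6.71% in the others of those groups, and 1.43% and 1.69% in Treg, against 0.865 to 1.07%. In MF and DC it was not the highest of the group. Of the other genes most like Cxcl10, Ifih1 was highest in the library numbered 4 in 3 of the 8 groups and Hspa1a in 1. No label says what the number stands for, and the part of RNA quality or of a shared day in these levels was not tested.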
